A study of Mus musculus with 4 samples.

Results

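The ephrin, netrin and slit families are secreted or membrane-bound axon guidance cues, and the Eph, Dcc, Unc5 and Robo proteins are the receptors that read them. Genes were taken from the count table by symbol: Epha, Ephb, Efna or Efnb followed by a digit, Ntn or Slit followed by a digit, Ntng, Robo, Unc5, or the full names Dcc and Neo1. This gave 39 of the 12700 genes of the table, of which 16 are ligands and 22 are receptors. The remaining gene, Unc50, shares the letters of the Unc5 name but encodes a Golgi membrane protein. Efna4, Epha1, Epha2 and Unc5cl fit the same letters and were not analysed here. Every gene was measured in every library, and the lowest count was 10 reads, for Ntn5 in MWT.

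The study examined the brain of mice lacking Ids, the lysosomal iduronate 2-sulfatase whose loss causes mucopolysaccharidosis type II (Hunter syndrome). Brains of C57BL/6 mice aged 9 months, either Ids knockout (Ids-ko) or wild type (wt), were dissected into 2 areas. These were cerebral cortex (Cx) and an area holding midbrain, diencephalon and hippocampus together (M). The study counts the striatum as part of M. Each brain gave both areas, so the Cx and M pools of a genotype came from the same 7 mice. Total RNA was pooled for each of the 4 conditions and polyA RNA was then purified. From each pool 1 SOLiD library was sequenced: CxH (Ids-ko, Cx), CxWT (wt, Cx), MH (Ids-ko, M) and MWT (wt, M). There were no replicates, so every test below compares 2 libraries and not 2 conditions, and no p-value is printed. Between 16380080 (MWT) and 23475080 (CxH) reads were counted on genes. Levels are reads scaled to each library's aligned reads (RPM). Where 4 counts of a gene follow each other, the order is CxH, MH, CxWT, MWT. Log2 ratios set the Ids-ko label over the wt label (CxH over CxWT in Cx, MH over MWT in M). They are given ± their standard error, which comes from read counting. The study's own rule decided the calls: a Poisson likelihood ratio test with p below 0.05, together with a log2 ratio of 0.7 or more in either direction. Errors and intervals cover counting error only.

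Ephrins and Eph receptors sit on the surfaces of neighbouring cells and signal at contact, in both directions. A-ephrins are held by a lipid anchor and bind mainly EphA receptors, and B-ephrins cross the membrane and bind mainly EphB receptors. Netrins attract axons through Dcc and repel them where Unc5 receptors take part, while netrin-G proteins are membrane-anchored relatives that bind other partners at synapses and do not signal through Dcc. Slits repel axons through Robo receptors. In the adult brain many of these genes stay active and are known for roles in synapses, cell migration and vessels, and several differ strongly between brain regions.

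The labels were checked before any ratio was read. Ids had 135 RPM in CxH and 354 in CxWT, but 368 in the library labelled MH and 155 in the library labelled MWT. The Cx libraries thus differed by -1.39 ± 0.024 (log2) and the M libraries by 1.24 ± 0.025. Ids reads in M run against the labels, and every direction given for M is that of the labels. The tissue labels were set against marker lists. Of 17 measured markers of midbrain, thalamus and hypothalamus neurons, 16 were called lower in CxH than in CxWT and 15 lower in MH than in MWT. Their summed level was 35.5 RPM in CxH and 48.1 in MH, against 566 in CxWT and 488 in MWT. In the library labelled as wt cortex the dopamine transporter Slc6a3 had 1895 reads, against 16 in CxH, 19 in MH and 1440 in MWT. The homeobox gene En1 had 0 reads in MH and 1 in CxH. Of 17 cortical excitatory neuron markers, 14 were called higher in CxH than in CxWT and 15 higher in MH than in MWT, with a summed level of 2140 and 1975 RPM in CxH and MH against 390.1 and 327 in CxWT and MWT. Striatal neuron markers, of a region that the study places in M, summed to 1222 and 1040 RPM in CxH and MH and to 491 and 478 in CxWT and MWT. Of these 10 markers, 8 were called higher in each area, and Tac1 was called lower in M. Oligodendrocyte markers summed to 4883 and 5083 RPM in CxH and MH and to 9291 and 7423 in CxWT and MWT. The sums of astrocyte and of microglia markers were higher in CxH than in CxWT and lower in MH than in MWT, although several single markers had the same sign in both areas: astrocyte markers summed to 4056 RPM in CxH and 2991 in CxWT but 3277 in MH and 3658 in MWT, and microglia markers to 666 and 339 RPM but 401 and 499.9 RPM. Choroid plexus markers summed to 587 and 641 RPM in CxH and MH and to 147 and 272 in CxWT and MWT, mostly of Ttr reads, and 5 of the 8 were called lower in CxWT than in MWT. On the neuron and oligodendrocyte lists CxH thus lay with MH and CxWT with MWT, as they did for the guidance genes called in both areas, and the part of these marker levels in the guidance gene results was not tested. In bulk tissue, fewer cells of a type and less RNA per cell cannot be told apart.

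In Cx, 16 of the 39 genes were called, which is 41.0% against 20.9% of all genes. Of these, 10 were higher and 6 lower in CxH than in CxWT, where 9.46% of all genes were called higher and 11.5% lower. In M, 17 were called, or 43.6% against 25.0% of all genes. Here 14 were higher and 3 lower in the library labelled MH than in that labelled MWT, against 12.3% and 12.7% of all genes. With a log2 threshold of 1 the counts were 10 in Cx and 11 in M, beside 11.0% and 12.9% of all genes. With an assumed variation of 0.2 between pools they were 11 and 14, beside 14.7% and 17.7%. TMM factors turned the split in Cx to 14 higher and 3 lower, with 20.3% of all genes called. Correction for GC content and length turned the split in M to 12 higher and 6 lower, with 18.4% of all genes called. The calls of both areas had 12 genes in common, which is 75.0% of the calls in Cx and 70.6% of those in M, and all 12 had the same direction. For all genes the shared calls were 63.2% of those in Cx and 53.0% of those in M. Efnb1, Efnb2, Ntn5, Ntng2, Slit3, Ephb3, Ephb6, Unc5a and Robo3 were higher in both areas. Ntn1, Ntng1 and Unc5c were lower in both. Dcc, Epha8 and Robo1 were called lower and Efna1 called higher in Cx alone, and Epha6, Epha10, Robo2, Robo4 and Slit1 were called higher in M alone, where the difference between areas was not tested. The other 18 genes were called in neither area. The sign of the log2 ratio was the same in Cx and in M for 35 of the 39 genes, or 89.7%, beside 72.8% of all genes. Since both areas came from the same mice, they are not independent repeats.

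**Figure D1:**
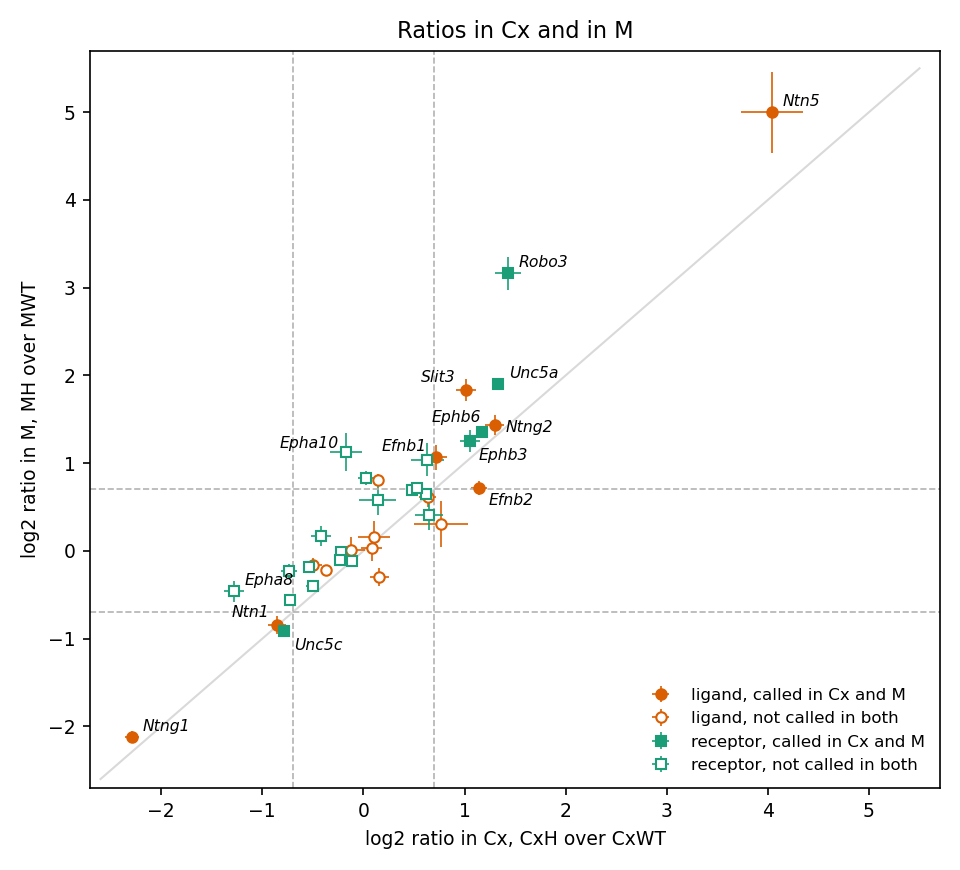
Log2 ratio in Cx (CxH over CxWT, horizontal axis) against log2 ratio in M (MH over MWT, vertical axis) for the 16 ligands (circles) and 22 receptors (squares). Bars are standard errors from counting, filled symbols were called in both areas, dashed lines mark 0.7 and -0.7, and the grey line marks equal ratios. Ntn5 stands apart, 16.4-fold higher in Cx and 32.0-fold in M, and Ntng1 lies lowest at -2.29 and -2.12.

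Over the 16 ligands the log2 ratios had a median of 0.15 (Cx) and 0.23 (M), and over the 22 receptors of -0.04 and 0.49, beside -0.09 and -0.07 for all genes. The receptor median in Cx turned to 0.05 with TMM factors and to 0.12 after correction for GC content and length. The same correction moved the receptor median in M to 0.29 and the ligand median in M to 0.085. Ligands were called in 8 of 16 cases in each area, with 6 higher and 2 lower, beside 20.9% of all genes in Cx and 25.0% in M. Receptors were called in 8 of 22 cases in Cx, 4 in each direction, and in 9 of 22 in M, with 8 higher and 1 lower, to be read against the same shares of all genes. Reads on ligands summed to 40.4% of the reads on receptors in CxH, 36.5% in MH, 48.3% in CxWT and 47.4% in MWT. The receptor sum was 752 RPM in CxH, 766 in MH, 670 in CxWT and 605 in MWT, and the ligand sum was 304, 280.0, 324 and 287 RPM in the same order. The first of these measures needs no scaling between libraries. On it ligand reads were fewer per receptor read in CxH than in CxWT and in MH than in MWT, although 11 of the 16 ligand genes had ratios above 0 in each area. Ntng1 held 66.4 RPM in CxWT and 76.3 in MWT against 13.6 in CxH and 17.5 in MH, a difference larger than that between the ligand sums. The summed netrin-G level had a log2 ratio of -1.01 (Cx) and -1.17 (M). The other ligand families lay between -0.0054 and 0.39 in Cx and between 0.064 and 0.69 in M. The ligand sums were thus lower in CxH and MH through Ntng1, and the ligand share without Ntng1 is not given here.

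**Figure D2:**
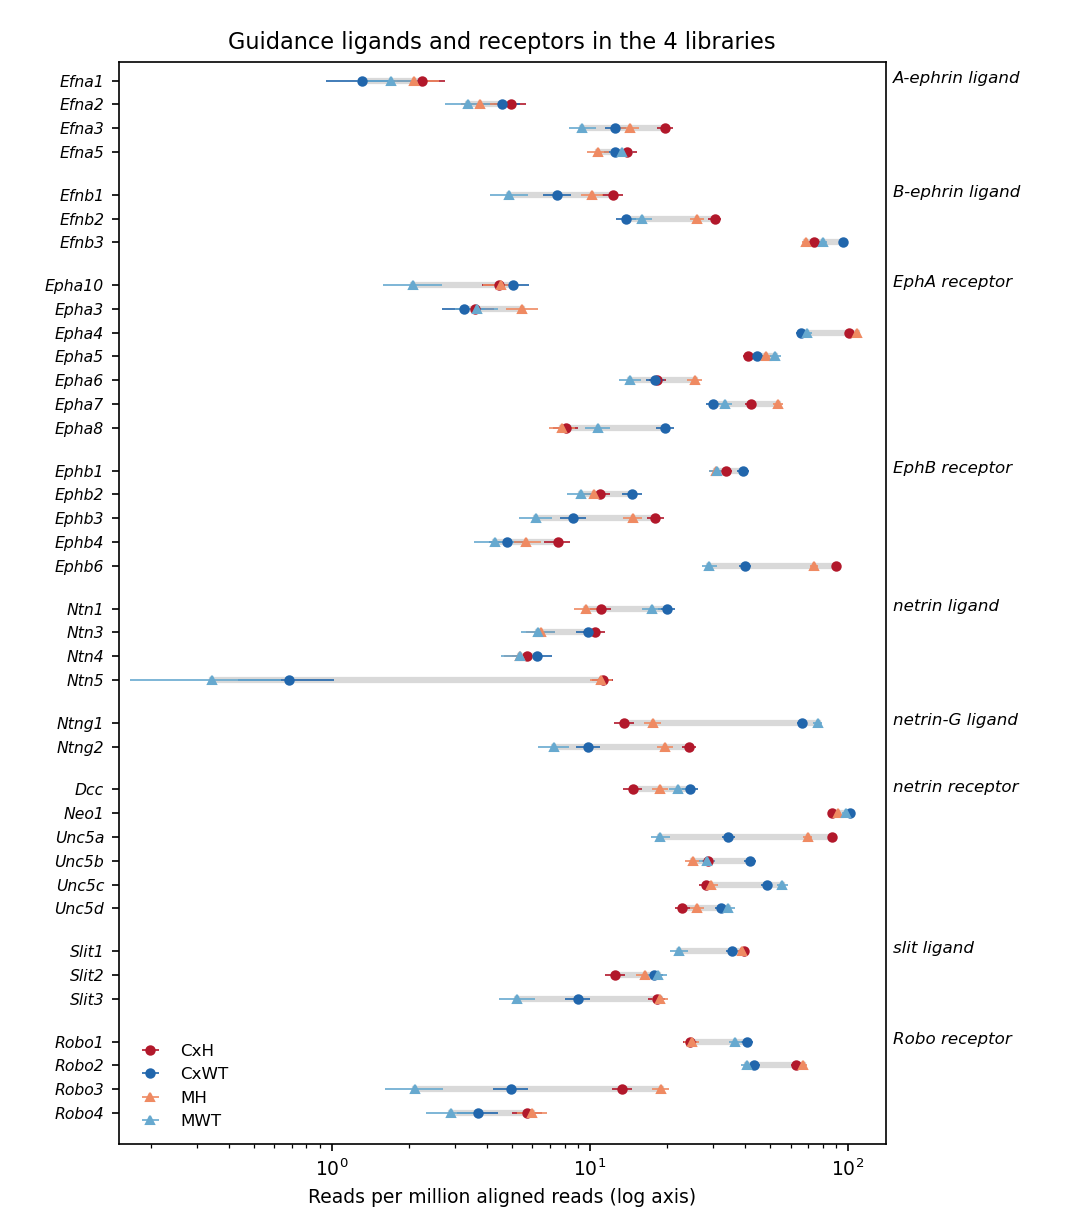
Level of each guidance ligand and receptor in the 4 libraries, in RPM on a log axis, grouped by family. Circles are Cx and triangles M. Red is CxH, orange MH, dark blue CxWT and light blue MWT, and bars are exact 95% intervals from counting. Ntn5 runs from 0.345 RPM in MWT to 11.2 in CxH. For Ntng1, Ntng2, Unc5a, Ephb6 and Robo3 both CxH and MH lie on one side of both CxWT and MWT.

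The largest ratio in each area was that of a single netrin ligand, Ntn5. Ntn5, a netrin known from the neurogenic regions of the adult brain, had 433 reads in CxH, 413 in MH, 23 in CxWT and 10 in MWT. CxH and MH were far above CxWT and MWT. The log2 ratio in Cx was 4.04 ± 0.31, a 16.4-fold difference. In M the difference was 32.0-fold, with a standard error of 0.46 on the log2 scale. Of the exon bases of Ntn5, 25.9% lie on the opposite strand of Sec1, and the sources do not state whether counting used the strand, so reads in the overlap may have gone to either gene or, as falling on 2 genes, been left out. Sec1 had 88, 105, 17 and 10 reads, high and low in the same libraries as Ntn5. Ntn1, the founding chemoattractant of commissural axons, ran the other way. It had 424 reads in CxH, 361 in MH, 669 in CxWT and 503 in MWT, with a log2 ratio of -0.85 ± 0.090 (Cx) and -0.85 ± 0.10 (M). Ntn3, a close relative of Ntn1, and Ntn4, a netrin of basement membranes, were called in neither area, with log2 ratios between -0.12 and 0.08, and the correction for GC content and length moved Ntn3 in M from 0.03 to -0.58. Ntn5 thus took 29.3% of netrin reads in CxH and 34.0% in MH, but 1.86% (95% exact Clopper-Pearson interval 1.19 to 2.78) in CxWT and 1.18% (0.565 to 2.15) in MWT. Counted per transcript length, its share was 56.1% in CxH and 61.3% in MH against 5.75% in CxWT and 3.70% in MWT.

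The promoters of 4 genes that were higher in both areas are shown, chosen because no annotated exon lies in the window: Ntn5, the receptors Unc5a and Robo3, and the ephrin Efnb2. Each is the 250 bases before the RefSeq start of transcription, from the promoter table of RefSeq, given 5′ to 3′ on the strand of the gene, with the position of its exact match in NCBIM37 (mm9), the build of the counts. Capitals mark GC boxes, the letters GGGCGG or their reverse complement CCGCCC, with overlapping matches counted.
Ntn5, chr7:52939142-52939391, plus strand: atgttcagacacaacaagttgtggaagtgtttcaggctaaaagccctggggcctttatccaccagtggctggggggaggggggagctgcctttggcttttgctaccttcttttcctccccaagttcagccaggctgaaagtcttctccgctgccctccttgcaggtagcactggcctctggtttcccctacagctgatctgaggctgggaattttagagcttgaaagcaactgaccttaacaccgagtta
Unc5a, chr13:55050522-55050771, plus strand: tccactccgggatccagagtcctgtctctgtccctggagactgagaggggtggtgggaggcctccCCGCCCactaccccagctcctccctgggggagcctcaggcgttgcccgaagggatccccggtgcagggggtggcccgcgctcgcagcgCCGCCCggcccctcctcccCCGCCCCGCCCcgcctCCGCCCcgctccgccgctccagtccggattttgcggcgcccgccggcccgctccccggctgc
Robo3, chr9:37240761-37241010, minus strand: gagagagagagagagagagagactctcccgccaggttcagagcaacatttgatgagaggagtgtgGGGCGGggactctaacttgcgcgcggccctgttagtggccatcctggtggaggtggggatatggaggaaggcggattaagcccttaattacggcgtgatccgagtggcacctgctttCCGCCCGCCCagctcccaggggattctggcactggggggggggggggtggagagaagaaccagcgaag
Efnb2, chr8:8661243-8661492, minus strand: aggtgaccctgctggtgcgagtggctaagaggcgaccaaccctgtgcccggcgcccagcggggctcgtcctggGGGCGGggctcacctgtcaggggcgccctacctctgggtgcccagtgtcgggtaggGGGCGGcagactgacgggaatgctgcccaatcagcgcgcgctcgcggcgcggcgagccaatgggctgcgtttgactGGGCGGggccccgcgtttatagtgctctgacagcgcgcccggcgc
The Ntn5 window holds no GC box and 2 CpG, and it ends 393 bases before the start of the gene in GENCODE vM1. Unc5a holds 5 GC boxes and 25 CpG, Robo3 holds 3 and 12, and Efnb2 holds 3 and 27. Efnb2 is the only one of these 4 windows with TATAAA on either strand. Windows were present for 34 of the 39 genes, 39 windows in all. A GC box was in 69.2% of them and in 32.7% of 32851 RefSeq windows of the same length, TATAAA was in 5.1% and 12.4%, and the E-box letters CAGATG were in 7.7% and 14.4%. The median window of a guidance gene held 19 CpG, against 6 in all windows. All windows came from 27025 genes and were not limited to the genes of the count table, so these contrasts need not be particular to guidance genes. A match of letters describes the sequence and was not tested as a binding site.

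Both netrin-G genes were called in both areas, in opposite directions. Ntng1, whose protein is known from thalamic axons and binds Lrrc4c, had 523 reads in CxH, 655 in MH, 2233 in CxWT and 2208 in MWT. It was 4.89-fold lower in Cx and 4.35-fold lower in M, with log2 ratios of -2.29 ± 0.070 and -2.12 ± 0.064, the lowest of all 39 genes. Ntng2, known from cortical neurons, had 935 reads in CxH, 731 in MH, 332 in CxWT and 210 in MWT, with log2 ratios of 1.30 ± 0.092 and 1.43 ± 0.11. Ntng2 accounted for 64.1% of netrin-G reads in CxH and 52.7% in MH, but 12.9% in CxWT and 8.68% in MWT. Within each library, which needs no scaling between libraries, Ntng2 had 1.79 (95% counting interval 1.61 to 1.99) reads for each Ntng1 read in CxH and 1.12 (1.004 to 1.24) in MH. The same ratio was 0.149 (0.132 to 0.167) in CxWT and 0.0951 (0.0826 to 0.1096) in MWT. The order of the 2 genes in CxH and MH was the reverse of that in CxWT and MWT. Per length of transcript the reversal held, since Ntng2 had 12.9 reads per kilobase of transcript, scaled to aligned reads (RPKM), in CxH and 10.4 in MH against 4.73 and 6.10 for Ntng1, and 5.25 in CxWT and 3.86 in MWT against 23.1 and 26.6.

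**Figure D3:**
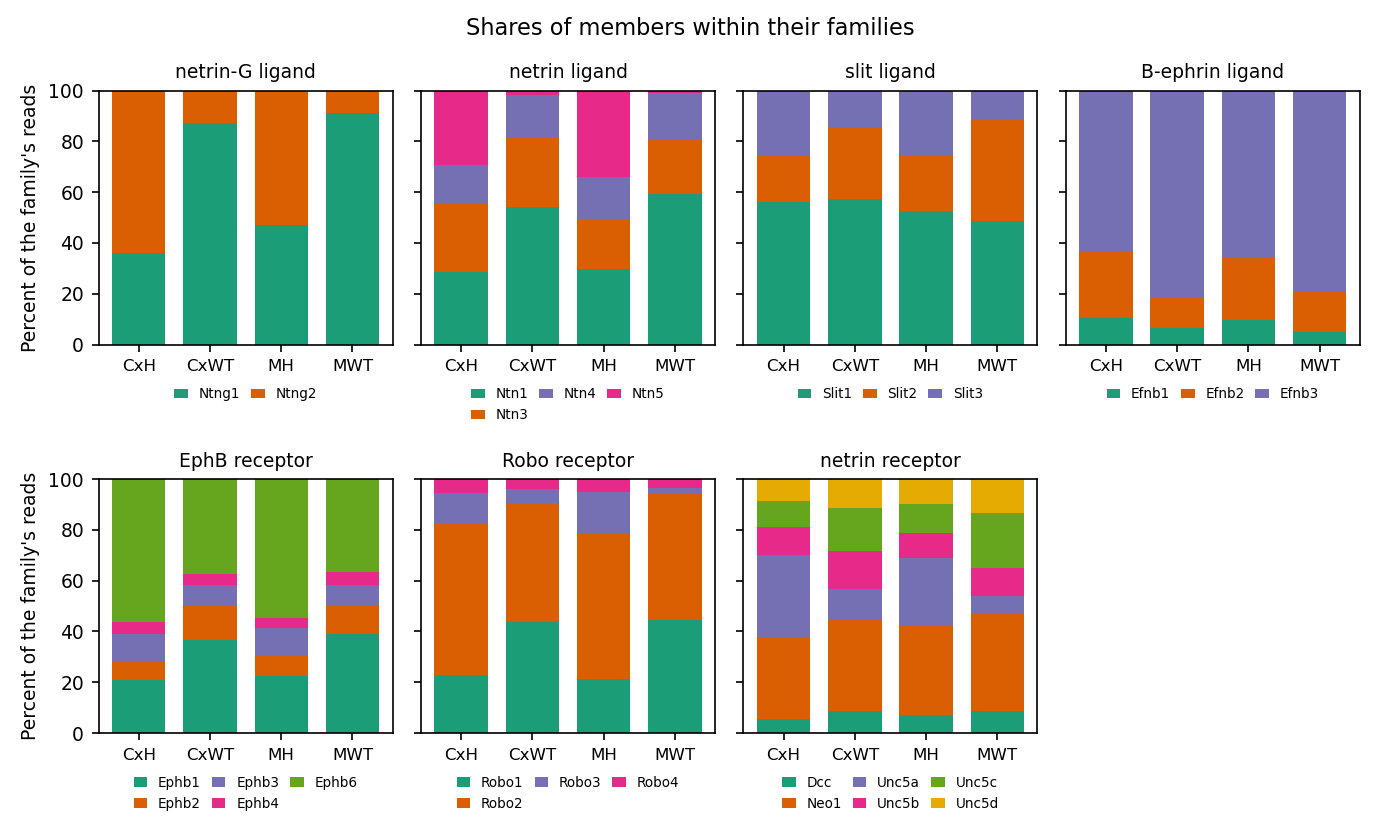
Share of a family's reads taken by each gene in each library, in percent, for 7 families. Bars stack to 100%. Ntng2 makes up 64.1% and 52.7% of netrin-G reads in CxH and MH but 12.9% and 8.68% in CxWT and MWT, and Ntn5 makes up 29.3% and 34.0% of netrin reads in CxH and MH but 1.86% and 1.18% in CxWT and MWT.

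Among the netrin receptors, Unc5a moved most. The Unc5 receptors turn the response to netrin into repulsion and can trigger cell death when netrin is lacking. Unc5a had 3336 reads in CxH, 2613 in MH, 1156 in CxWT and 543 in MWT, with CxH and MH above CxWT and MWT. Its log2 ratio was 1.33 ± 0.049 (Cx) and 1.90 ± 0.068 (M), where the correction for GC content and length gave 1.17. Unc5c had 1082 reads in CxH, 1104 in MH, 1628 in CxWT and 1612 in MWT, and was lower in both areas, with log2 ratios of -0.79 ± 0.057 and -0.91 ± 0.056. The call of Unc5c in Cx was lost with TMM factors, at -0.69, and after correction for GC content and length, at -0.54. For each read of Unc5c there were 3.08 reads of Unc5a in CxH and 2.37 in MH, but 0.710 in CxWT and 0.337 in MWT. Dcc, the attractive netrin receptor, had 566 reads in CxH, 700 in MH, 823 in CxWT and 634 in MWT. It was called lower in Cx only, at -0.74 ± 0.079, and the call was lost with TMM factors, at -0.64. In M its log2 ratio was -0.23 ± 0.079. Neo1 (neogenin), a receptor of netrins and of repulsive guidance molecules, had the most reads of the family, with 3344, 3413, 3438 and 2850. Its 4 levels lay between 86.9 and 102 RPM and it was called in neither area. Unc5b and Unc5d were called in neither, with log2 ratios from -0.54 to -0.19, but after correction for GC content and length Unc5b was past the threshold in both areas, at -0.84 and -0.79.

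The slits did not move as one. Slit3 had 700 reads in CxH, 700 in MH, 302 in CxWT and 152 in MWT. The log2 ratios were 1.02 ± 0.099 (Cx) and 1.84 ± 0.13 (M). Slit1, the slit with the most reads in every library, had 1522, 1455, 1200 and 642 reads. It stood out for a low MWT count, with a log2 ratio of 0.15 ± 0.056 (Cx) and 0.81 ± 0.068 (M), where the call was lost after correction for GC content and length, at 0.22. Slit2 was called in neither area, at -0.50 ± 0.088 and -0.16 ± 0.086. Slit3 took 25.9% of slit reads in CxH and 25.3% in MH against 14.4% in CxWT and 11.5% in MWT, and Slit2 took 17.8% and 22.1% against 28.4% and 40.0%.

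All 4 Robo receptors were called in at least 1 area, as were 32.7% of all genes. Robo3, which is needed for commissural axons to cross the midline and in mammals does not bind slits, had 513 reads in CxH, 705 in MH, 166 in CxWT and 61 in MWT. Its log2 ratio was 1.43 ± 0.13 (Cx) and 3.16 ± 0.19 (M), the largest of the receptors in each area. Robo4, the Robo of endothelial cells, lies 1645 bases from Robo3 on chromosome 9 and had 220, 223, 124 and 84 reads. It was called in M, at 1.04 ± 0.18, and not in Cx, at 0.63 ± 0.16, where TMM factors moved it past the threshold, to 0.72. The M call was lost after correction for GC content and length, at 0.62. Endothelial cell markers summed to 239 RPM in CxH and 171 in CxWT, with 2 of 10 called higher and 0 lower and a median log2 ratio of 0.54. In M they summed to 186 RPM in MH and 205 in MWT, with 0 called higher and 1 lower. Robo2 had 2417, 2493, 1458 and 1178 reads and was just above the threshold in M, at 0.71 ± 0.051, and below it in Cx, at 0.53 ± 0.048, and scaling by column totals put M at 0.65. The correction for GC content and length put Robo2 past the threshold in both areas, at 0.78 and 0.77. Robo1 went down instead, with 944 reads in CxH, 927 in MH, 1363 in CxWT and 1062 in MWT. It was called lower in Cx, at -0.73 ± 0.061, which TMM factors moved to -0.63, and had a log2 ratio of -0.56 ± 0.065 in M, which the correction moved past the threshold, to -0.71. Robo1 made up 23.1% and 21.3% of Robo reads in CxH and MH but 43.8% and 44.5% in CxWT and MWT, while Robo2 held 59.0% and 57.3% against 46.9% and 49.4%.

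Of the B-ephrins, Efnb1 and Efnb2 were called higher in both areas, as were 6.23% of all genes, and Efnb3 was not called. Efnb2, known as the ephrin of arteries and also made by neurons, had 1173 reads in CxH, 975 in MH, 465 in CxWT and 460 in MWT. Its log2 ratio was 1.14 ± 0.079 (Cx) and 0.72 ± 0.082 (M), where scaling by column totals moved it to 0.65. Efnb1 had 472, 382, 251 and 141 reads, and log2 ratios of 0.72 ± 0.11 and 1.07 ± 0.14. Both Efnb1 calls were lost after correction for GC content and length, at 0.44 and 0.64, and the call in Cx also with column totals, at 0.699. Efnb3, which marks the midline of the spinal cord, was the B-ephrin with the most reads, at 2853 in CxH, 2580 in MH, 3226 in CxWT and 2316 in MWT. Its share of B-ephrin reads was 63.4% in CxH and 65.5% in MH against 81.8% in CxWT and 79.4% in MWT.

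The A-ephrins held a single call, that of Efna1 in Cx, on few reads: 86 in CxH, 78 in MH, 44 in CxWT and 49 in MWT. Its log2 ratio was 0.77 ± 0.27 (Cx) and 0.30 ± 0.26 (M), and the Cx call was lost after correction for GC content and length, at 0.61. Efna3 had the highest RPM of the A-ephrins in CxH, with 752 reads in CxH, 535 in MH, 423 in CxWT and 271 in MWT. At 0.63 ± 0.088 and 0.61 ± 0.11 its log2 ratios did not reach the threshold, which TMM factors put it past in Cx, at 0.73. Efna2 and Efna5 had log2 ratios between -0.30 and 0.16.

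Among the EphB receptors, 2 of 5 were called, both higher in both areas, as were 6.23% of all genes. Ephb6, which lacks an active kinase, had the most reads of the family in CxH, CxWT and MH, with 3459 reads in CxH, 2768 in MH, 1344 in CxWT and 841 in MWT. Its log2 ratio was 1.17 ± 0.046 (Cx) and 1.35 ± 0.057 (M). Ephb3 had 691, 550, 290 and 179 reads and log2 ratios of 1.06 ± 0.10 and 1.25 ± 0.12. Both genes stood higher in CxH and MH than in CxWT or MWT. Ephb1, Ephb2 and Ephb4, the last a receptor of Efnb2 in veins, were called in neither area, with log2 ratios between -0.42 and 0.65, and TMM factors put Ephb4 past the threshold in Cx, at 0.74. The share of EphB reads held by Ephb6 was 56.2% in CxH and 54.6% in MH against 37.2% in CxWT and 36.4% in MWT, and that of Ephb1 was 21.1% and 22.7% against 36.7% and 38.9%.

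None of the 7 EphA receptors was called in both areas with the scaling by aligned reads and no correction. Epha4, which binds ephrins of both classes, had the most reads of all the receptors in CxH and MH, with 3879 reads in CxH, 4049 in MH, 2207 in CxWT and 2003 in MWT. Its log2 ratios of 0.62 ± 0.038 and 0.65 ± 0.039 lay under the threshold. TMM factors put it just past the threshold in both areas, at 0.71 and 0.71, and the correction for GC content and length did so in Cx, at 0.76. Epha8, known from the dorsal midbrain, had 311 reads in CxH, 292 in MH, 659 in CxWT and 311 in MWT. The CxWT library alone stood high, and Epha8 was called lower in Cx, at -1.28 ± 0.099, and not in M, at -0.46 ± 0.12. After correction for GC content and length it was also past the threshold in M, at -1.15. Epha10, another receptor without an active kinase, had 172, 169, 169 and 60 reads. Here the MWT library alone stood low, with a log2 ratio of -0.17 ± 0.16 (Cx) and 1.13 ± 0.22 (M), where the call was lost after the correction, at 0.53. Epha6 had 704, 953, 604 and 415 reads and was called in M only, at 0.83 ± 0.085, beside 0.03 ± 0.080 in Cx. Epha3, Epha5 and Epha7 were called in neither area, with log2 ratios between -0.12 and 0.69. After the correction Epha7 was past the threshold in both, at 0.79 (Cx) and 0.84 (M), and Epha3 in M, at 0.77, while TMM factors put Epha7 past it in M, at 0.75.

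Compared per length, the leading guidance genes in CxH and MH differed from those in CxWT and MWT. Efnb3 was first or second among ligands and receptors in every library, at 23.3 RPKM in CxH, 21.7 in MH, 30.1 in CxWT and 25.1 in MWT. In CxH it was joined by Ephb6 at 23.9 and Unc5a at 21.7 RPKM, and in MH by the same genes at 19.7 and 17.5 RPKM. In CxWT and MWT the gene beside it was Ntng1, at 23.1 and 26.6 RPKM, followed by Neo1 at 13.8 and 13.3 RPKM. At the low end, Ntn5 was at 0.435 RPKM in CxWT and 0.219 in MWT. Epha3 was the lowest in CxH at 0.638 RPKM, and its levels in CxWT and MWT were 0.578 and 0.647 RPKM.

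The areas were then compared within a genotype label. In both of these pairs Ids differed, at a log2 ratio of -1.44 (CxH over MH) and 1.19 (CxWT over MWT). On the neuron and oligodendrocyte lists the members of each pair lay together, and on the microglia list they did not. Fewer guidance genes were called here than the 16 in Cx and 17 in M. The part of Ids and of tissue make-up in this was not tested. Between CxH and MH, 0 of the 39 genes were called, beside 3.5% of all genes, and log2 ratios of CxH over MH ran from -0.60 (Epha3) to 0.69 (Ntn3). Among all genes 69.6% of these calls were higher in CxH, and 58.4% with column totals. Between CxWT and MWT, 5 of 39 were called, beside 7.54% of all genes. All 5 were higher in CxWT, where 5.43% of all genes were called higher: Epha10 at 1.28 ± 0.22, Robo3 at 1.23 ± 0.22, Unc5a at 0.87 ± 0.075, Epha8 at 0.87 ± 0.099 and Slit3 at 0.77 ± 0.14. Of all genes called there, 72.0% were higher in CxWT, and 55.2% with column totals. Ntn5 had a log2 ratio of 0.99 ± 0.55 on 23 and 10 reads and was not called. After correction for GC content and length 2 of the 39, Epha10 at 0.78 and Robo3 at 0.77, passed the threshold, beside 3.38% of all genes, and with a log2 threshold of 1 also 2, beside 2.32%.

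Since Ids reads and regional markers did not follow the labels in one way, the other 2 pairs of libraries were set side by side, a choice made after these values were seen. CxH over MWT, the 2 libraries low in Ids, gave 17 called guidance genes, beside 30.7% of all genes, with 15 higher and 2 lower (15.6% and 15.1% of all genes). MH over CxWT, the 2 libraries high in Ids, also gave 17, beside 15.3% of all genes, with 11 higher and 6 lower (6.41% and 8.89%). Both of these pairs were unlike in the neuron markers, and they share libraries with the comparisons above.

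The ratios of the guidance genes moved with GC content. The median GC content of their longest coding transcripts was 55.3%, against 50.7% for 12354 genes with an annotated transcript. Across the 39 genes the Spearman correlation of GC content with the log2 ratio was 0.29 (Cx) and 0.40 (M), and 0.43 and 0.46 across all genes. It was 0.57 for CxH over MH and 0.84 for CxWT over MWT, beside 0.54 and 0.60 for all genes. Points share the same 2 libraries, and genes are not independent replicates. The 19 guidance genes above the median GC content of the group reached medians of 0.63 (Cx) and 1.04 (M) on the log2 scale, and the other 20 had -0.17 and -0.06. All genes above the same GC content, 3102 in number, had medians of 0.19 and 0.36. Ntn5 had the highest GC content of the 39 genes, 63.3%, and the highest ratio, and Ntng1, with the lowest ratio, had 43.0% GC. After a correction for GC content and length the log2 ratio of Ntn5 was 3.71 in Cx and 4.48 in M, and that of Ntng1 in M was -1.82. After the correction the Spearman correlation across the 39 genes was 0.05 (Cx), 0.11 (M), -0.014 for CxH over MH and 0.46 for CxWT over MWT. Across all genes it was 0.017, 0.096, -0.039 and 0.090 in the same order. The corrected ratios of the guidance genes thus still rose with GC content for CxWT over MWT. The part of GC content in the other ratios was not tested beyond this correction.

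**Figure D4:**
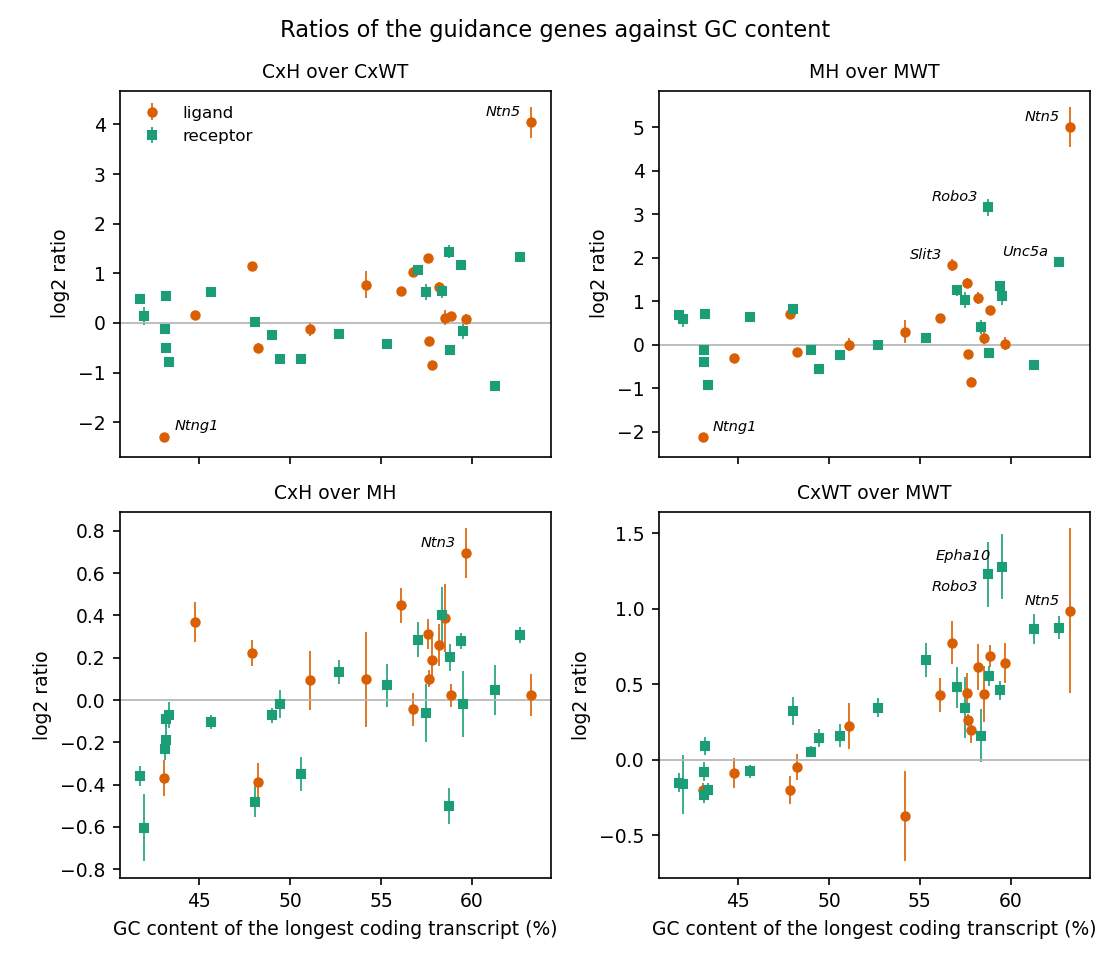
Log2 ratio of each ligand (circles) and receptor (squares) against the GC content of its longest coding transcript, in percent, for CxH over CxWT, MH over MWT, CxH over MH and CxWT over MWT. Bars are standard errors from counting and the vertical scales differ between panels. The Spearman correlation over all 39 genes, Unc50 included in the values but not drawn, is 0.29, 0.40, 0.57 and 0.84 in the 4 panels.

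Genes that act beside or below these receptors were counted from 5 lists, of which 81 of 85 genes were measured. In Cx 11 were called higher and 8 lower, or 23.5% against the 20.9% of all genes, and in M 18 higher and 6 lower, or 29.6% against 25.0%. Both shares lay near the background. The list nearest the Eph receptors, 22 adaptors and exchange factors, had 5 higher and 3 lower in each area, with 5 higher and 2 lower in both. Of 13 co-ligands and co-receptors, 1 was called higher in Cx and 3 in M, and of 15 netrin receptor signaling genes 1 higher and 1 lower in Cx and 5 higher and 1 lower in M. Of 13 slit and Robo signaling genes 2 were higher and 2 lower in Cx, and 2 higher and 1 lower in M. Among genes called in both areas the highest mean log2 ratio was that of Lingo1, a co-receptor of the Nogo receptor, with 11338 reads in CxH, 9968 in MH, 3911 in CxWT and 1755 in MWT. Its log2 ratio was 1.34 ± 0.027 (Cx) and 2.14 ± 0.037 (M). Sipa1l1, a Rap-regulating protein of synapses, followed at 1.76 and 1.70, and Ngef (ephexin), an exchange factor that acts below EphA receptors, at 1.75 and 1.68. The lowest were Vav3, an exchange factor that Eph receptors recruit, at -2.20 and -2.31, the adaptor Grb10 at -1.74 and -1.52, and the ubiquitin ligase Trim67, a partner of Dcc, at -1.55 and -1.15. Unc50, the gene without a guidance role, had 748 reads in CxH, 764 in MH, 895 in CxWT and 903 in MWT and was called in neither area, at -0.45 and -0.61.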

How the data were processed

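PolyA RNA, purified from total RNA pools of 7 mice per condition, was sequenced on a SOLiD 3 Plus instrument. The authors filtered reads by quality, aligned them to NCBI37/mm9 with PASS 2.10, where ungapped best hits with up to 2 mismatches were kept, and deposited raw counts of the reads that fell on 1 gene only, leaving out genes with under 50% of their length covered. Which gene annotation and whether the strand was used for counting are not given in the sources used here. Counts of the 12700 genes were scaled by the aligned reads the study lists, with 1 in place of a count of 0 in ratios. Entrez identifiers gave 12690 symbols through a RefSeq gene table, and GENCODE vM1 on the same build gave positions, GC content and transcript length for 12354 genes.

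All genes entered each test, a likelihood ratio test on Poisson counts, for the 4 comparisons between libraries and 2 further pairs. Shares have exact Clopper-Pearson 95% intervals. Depth was 16380080 to 23475080 reads on genes, so 3 reads amount to 0.0779 to 0.104 RPM. Reads in all libraries are given for genes called in Cx or in M and for the gene with the most RPM of each family. Other pathway genes are named if called in both areas, as the 3 highest and 3 lowest by mean log2 ratio. Members and lists were chosen with earlier results of these data known. One of the 5 pathway lists entered the totals and is not reported here by itself. The scripts were tested on simulated data.

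Alternatives were column totals, TMM factors of edgeR 4.0.16 and size factors of DESeq2 1.42.0 for scaling, at least 100 reads, a log2 threshold of 1, Benjamini-Hochberg adjustment, an edgeR exact test with an assumed variation of 0.2, 0.5 added to every count, and a lowess correction for GC content and length over 10813 genes. Software was R 4.3.3 and Python 3.11.15 with scipy 1.17.1, numpy 2.4.6, statsmodels 0.14.6, pandas 2.3.3 and matplotlib 3.10.9. Raw reads and protein sequences were not used here.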

Additional observations from a re-analysis of the deposited data

Results flagged for a closer look

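Epha10 had a log2 ratio of -0.17 in Cx and 1.13 in M, and of -0.018 for CxH over MH and 1.28 for CxWT over MWT, since the MWT library alone held few of its reads. Robo3 was lower in CxH than in MH, at -0.50, and higher in CxWT than in MWT, at 1.23. Slit3 gave -0.043 and 0.77 in the same 2 comparisons. In each case the 2 effects have opposite signs and one of them was called, and the difference between them was not tested.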

How the results depend on the processing

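The Cx and M pools of a genotype came from the same mice. Single mice cannot be paired in 1 pooled library per condition, and no paired analysis was run. Leaving out a library leaves no comparison of the labels in its area. DESeq2 was used for its size factors alone. With a log2 threshold of 1, called guidance genes fell to 10 in Cx, 11 in M and 2 for CxWT over MWT. Correction for GC content and length left 2 for CxWT over MWT. It moved the ligand medians to 0.085 in M and 0.12 for CxWT over MWT, and the receptor medians to 0.12 in Cx, 0.29 in M and 0.066 for CxWT over MWT. The remaining alternatives kept the counts of called genes within 1.5 times the reported ones. For the 21 genes called in Cx or M, 33 of the 42 ratios were called. Column totals ended 3 of these calls, TMM factors 3 and the GC and length correction 7, while the correction put 3 further ratios and TMM factors 1 further ratio past the threshold. Of the genes called in neither area, the correction put 6 ratios past it (Epha4, Epha3, and Epha7 and Unc5b in both areas) and TMM factors 5 (Efna3 and Ephb4 in Cx, Epha7 in M, and Epha4 in both areas). The correction also changed the split in M from 14 higher and 3 lower to 12 and 6. Over the 39 genes no called ratio changed sign under these scalings or this correction, while uncalled ratios did in 10 cases with the correction, 2 with column totals and 1 with TMM factors. TMM factors moved the share of higher calls among all genes in Cx from 45.2% to 56.0%, and for the guidance genes they gave 14 higher and 3 lower in Cx. Counted per transcript length, 74 of the 84 family shares examined moved beyond their counting interval. An assumed variation of 0.2 between pools left 11 called in Cx and 14 in M. With 1 pool per condition, variation between pools could not be measured.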
